A study of Mus musculus with 8 samples.

Results

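The genes described here are the Wnt ligands, their Frizzled receptors and the Sfrp and Dkk families of secreted Wnt regulators, in c-kit+ cells of acute myeloid leukaemia that were taken from mouse marrow. Every row of the deposited gene table whose symbol begins with Wnt, Fzd, Sfrp or Dkk followed by a digit was taken, which gave 36 of 31574 rows. They are 18 ligands, 10 receptors, 4 Sfrp genes and 4 Dkk genes. RNA sequencing covered 8 libraries in 4 groups of 2. The Ezh1-null tamoxifen group is labelled Ezh1-/- Ezh2-/-, the Ezh1-null oil group Ezh1-/- Ezh2+/+, the Ezh1-present tamoxifen group Ezh1+/+ Ezh2-/- and the Ezh1-present oil group Ezh1+/+ Ezh2+/+. Where the labels of the oil groups write Ezh2+/+, the series' design gives the floxed Ezh2 allele, which tamoxifen deletes. Tamoxifen was dissolved in corn oil and injected into the peritoneum at 10 mg/kg/day for 5 doses, and cells were taken 7 days after tamoxifen or oil. All mice were of strain C57BL/6, the marrow came from femur and tibia, and the libraries were TruSeq libraries from 1 µg of total RNA. The sources used here give neither the age of the mice nor the Cre driver nor the number of leukaemias. Nothing in the labels makes the replicates separate animals or leukaemias, so each p reflects only how much these libraries vary, which may be technical. Tamoxifen and Ezh2 deletion cannot be told apart, and nor can Ezh1 genotype and the leukaemia it came from.

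Wnt proteins are secreted, lipid-modified ligands that bind Frizzled receptors together with the co-receptors Lrp5 and Lrp6. One branch of the pathway stabilises beta-catenin, which then works with Tcf and Lef factors on target genes, and other branches act without beta-catenin. Sfrp proteins carry a Frizzled-like domain and bind Wnts outside the cell, and Dkk1, Dkk2 and Dkk4 act through Lrp5 and Lrp6. In bone marrow these ligands and antagonists are known mainly as products of stromal and bone-forming cells that act on blood stem cells. Ezh1 and Ezh2 are the alternative methyltransferases of Polycomb repressive complex 2 (PRC2), which silences developmental genes, often at promoters rich in CG dinucleotides.

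Promoter windows of 250 bases before to 50 bases after the start site were matched by gene number in RefSeq (build GRCm38.p6) for 24 of the 36 genes, with 27 windows. The median number of CG dinucleotides per window was 26 in these 27 windows, against 7 over 32851 promoters of 27025 genes. The same median was 27.5 over 8 windows of 6 genes called in any comparison described below. It was 30.5 over 14 windows of 13 genes tested and never called. Wnt5b, a called gene, gave windows of 7, 4 and 47 CG, and the called genes Fzd2 and Dkk3 had no window. These medians therefore do not rank called against uncalled genes. The motif CTTTGA, the core of the Tcf and Lef binding sequence, stood on either strand in 4 of the 27 windows (14.8%), against 16.0% of all promoters. Windows are shown for Sfrp2, Fzd10 and Wnt7a, which with Fzd2 were called in more comparisons than the other genes of these families. Capitals mark each CG, and CTTTGA was not found in these 3 windows. The Sfrp2 window (chr3:83766071-83766370, plus strand) holds 22 CG, the Fzd10 window (chr5:128600856-128601155, plus strand) holds 45, and the Wnt7a window (chr6:91411304-91411603, minus strand) holds 42.
Sfrp2: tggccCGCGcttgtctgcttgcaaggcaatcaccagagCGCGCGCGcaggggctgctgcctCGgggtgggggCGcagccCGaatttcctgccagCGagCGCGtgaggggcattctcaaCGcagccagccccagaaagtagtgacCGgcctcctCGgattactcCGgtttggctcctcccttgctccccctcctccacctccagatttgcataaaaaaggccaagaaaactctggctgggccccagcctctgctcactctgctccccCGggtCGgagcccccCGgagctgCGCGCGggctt
Fzd10: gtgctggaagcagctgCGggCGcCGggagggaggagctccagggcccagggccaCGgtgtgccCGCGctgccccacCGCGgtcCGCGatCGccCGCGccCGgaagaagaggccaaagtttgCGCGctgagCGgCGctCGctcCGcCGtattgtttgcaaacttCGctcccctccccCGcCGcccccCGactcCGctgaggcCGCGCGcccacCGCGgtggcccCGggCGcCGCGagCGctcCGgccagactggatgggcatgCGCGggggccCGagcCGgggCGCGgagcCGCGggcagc
Wnt7a: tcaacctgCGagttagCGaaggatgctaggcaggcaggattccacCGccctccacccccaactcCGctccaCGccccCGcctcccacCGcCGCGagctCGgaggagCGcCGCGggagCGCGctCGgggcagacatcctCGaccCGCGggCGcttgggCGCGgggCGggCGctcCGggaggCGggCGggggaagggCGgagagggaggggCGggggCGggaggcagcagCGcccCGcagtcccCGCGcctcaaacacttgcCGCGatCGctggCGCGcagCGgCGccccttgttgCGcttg

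Values are log2 of a normalised read count with a floor of 1, centred by the authors on each gene's median over the 8 libraries. A level is therefore known only where libraries sit at the floor, and a value of 0 means the gene's own median. The normalised value of 1 read, a rough measure of relative depth, ran from 0.746 in the first Ezh1-present tamoxifen library, the deepest, to 1.24 in the first Ezh1-null oil library. Between replicates the median SD was 0.115 in Ezh1-null tamoxifen, 0.116 in Ezh1-null oil, 0.142 in Ezh1-present tamoxifen and 0.125 in Ezh1-present oil. Log2 changes come from limma over 18051 genes and are given ± standard error with 2 libraries per group. Called genes are those with a Benjamini-Hochberg adjusted p under 0.05. Ezh1 differed between Ezh1-null and Ezh1-present libraries by -3.53 ± 0.10 in oil (limma adjusted p = 0.00108) and -3.17 ± 0.10 after tamoxifen (0.000793). Ezh2 differed between tamoxifen and oil libraries by -0.47 ± 0.08 without Ezh1 (adjusted p = 0.0554) and -0.18 ± 0.08 with Ezh1 (0.293), and neither passed the threshold. Ezh2 was called lower in Ezh1-null libraries, with changes of -0.31 ± 0.08 in oil (limma adjusted p = 0.0492) and -0.60 ± 0.08 after tamoxifen (0.02). The oil call ended without any 1 library (adjusted p from 0.0629 to 0.164), and that after tamoxifen ended without either Ezh1-null tamoxifen library (0.0826 and 0.0823) or either Ezh1-present tamoxifen library (0.0677 and 0.0564). A value summed over the whole gene does not resolve the deleted exons. None of the 8 myeloid progenitor markers, among them Kit and Ptprc, lay at the floor in both libraries of a group. The same held for the endothelial and erythroid markers described below, so this does not tell cell types apart. Centred values allow no closer check of the cell type.

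Of the 36 genes 6 were not detected. Wnt1, Wnt3, Wnt3a, Wnt7b, Dkk1 and Dkk2 lay at the floor in all 8 libraries. Wnt5a, a ligand that acts mostly without beta-catenin, had about 2 reads in the second Ezh1-present tamoxifen library and none elsewhere. Wnt8a had an estimated 1.53 reads in the second Ezh1-null tamoxifen library and Dkk4 an estimated 3.24 in the first Ezh1-present oil library. The other 27 genes had at least 2 libraries above the floor and were tested: 12 of 18 ligands, 10 of 10 receptors, 4 of 4 Sfrp genes and 1 of 4 Dkk genes. No floor was seen in 19 of these 27. The remaining 8, Wnt7a, Wnt9a, Wnt10a, Wnt11, Wnt16, Sfrp1, Sfrp2 and Sfrp5, had at least 2 libraries at the floor, and their reads could be estimated. Over 36 genes, 8 were called in at least 1 comparison and 19 of those tested were never called. The comparison of Ezh1 genotype in oil alone called 24.9% of all genes tested, so 8 of 27 is not read as a result about these families. A low gene can pass the filter through the group where it is high, so the counts over the 27 genes below are a description and support nothing by themselves.

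**Figure D1:**
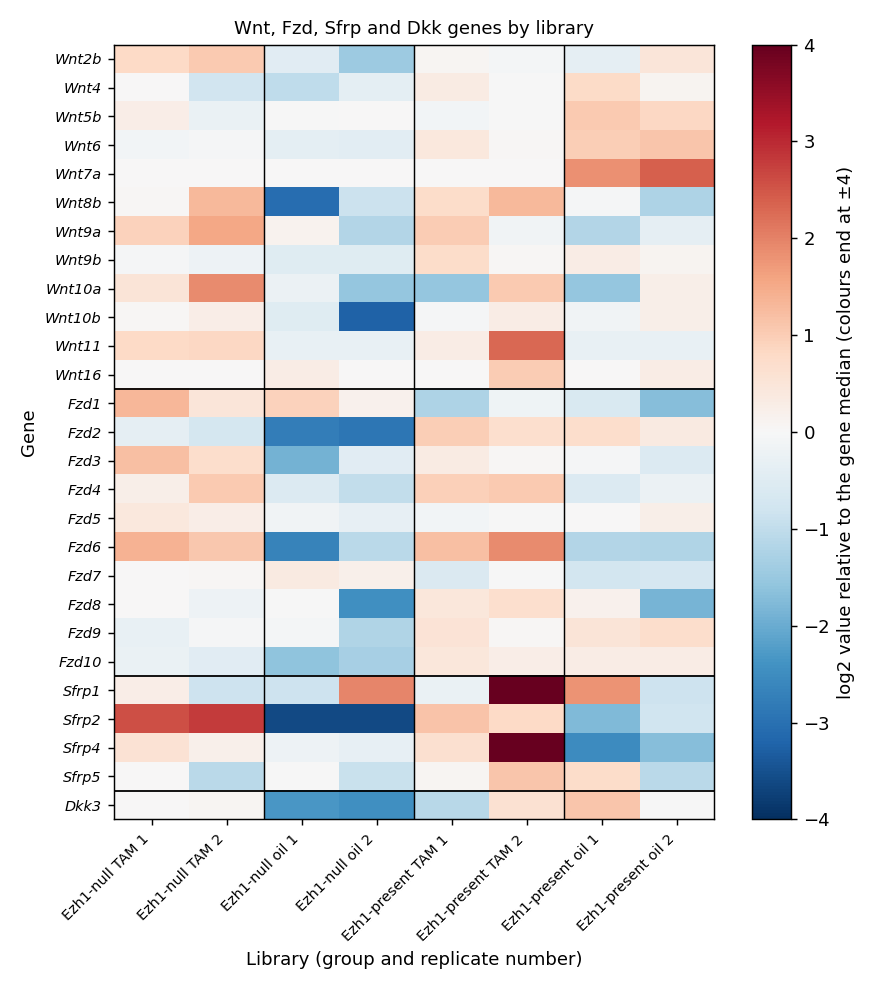
Log2 value relative to the gene's median (colour, ending at ±4) of the 27 tested Wnt, Fzd, Sfrp and Dkk genes (rows, divided by role) in the 8 libraries (columns, divided by group). The Ezh1-null oil columns hold the lowest values of Fzd2, Fzd10, Sfrp2 and Dkk3, and Wnt7a is above its median only in the Ezh1-present oil columns.

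The first comparison sets Ezh1-null tamoxifen against Ezh1-null oil libraries, labelled as Ezh2-/- and Ezh2+/+. The antagonist Sfrp2 and the receptors Fzd2 and Fzd10 rose, and no gene of the 4 families fell. The called share was 3 of 27, against a background of 3.40% of all genes tested in either direction and 3.10% higher. Log2 changes were positive in 22 genes, negative in 4 and 0 in 1, with a median of 1.10, against 0.00 over all genes. In 17 genes both tamoxifen libraries lay above both oil libraries, against 24.5% of all genes, and in 1 gene below, against 24.8%. The authors' deposited table, which lists changes of at least 2-fold without a test, holds 14 of the 36 genes as higher and 0 as lower in this comparison.

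Tamoxifen in Ezh1-present cells moved few of these genes past the test. Wnt7a alone was called, as lower and at very few reads, which is 1 of 27 against 0.903% of all genes tested. Log2 changes were positive in 19 genes and negative in 8, with a median of 0.40, against 0.01 over all genes. The tamoxifen libraries lay above the oil libraries in 10 genes, against 28.5% of all genes, and below them in 4, against 25.3%. The authors' deposited table holds 9 of the 36 genes as at least 2-fold higher and 2, Wnt5b and Wnt7a, as at least 2-fold lower.

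The comparisons of Ezh1-null with Ezh1-present cells follow, in oil and after tamoxifen. In oil libraries the ligands Wnt5b, Wnt6 and Wnt7a, the receptors Fzd2 and Fzd10, Sfrp2 and Dkk3 were lower in Ezh1-null cells, and Fzd7 was higher, though Wnt7a and Sfrp2 had too few reads there to resolve a difference. These are 8 of 27 genes, against 24.9% of all genes tested, with 7 lower against a background of 12.4% and 1 higher against 12.5%. The median log2 change was -0.70, against -0.04 over all genes, with 6 changes positive, 20 negative and 1 at 0. Ezh1-null libraries lay below Ezh1-present ones without overlap in 14 genes, against 34.7% of all genes, and above them in 3, against 31.0%. After tamoxifen 3 of 27 were called, against 12.2% of all genes: Sfrp2 was higher (background 6.77%) and Fzd2 and Fzd10 were lower (background 5.44%) in Ezh1-null cells. In that comparison the median was -0.31, with 6 genes apart upwards (30.7% of all genes) and 8 apart downwards (31.8%). The oil comparison and the tamoxifen comparison in Ezh1-null cells share the Ezh1-null oil libraries, so a low value there enters both.

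**Figure D2:**
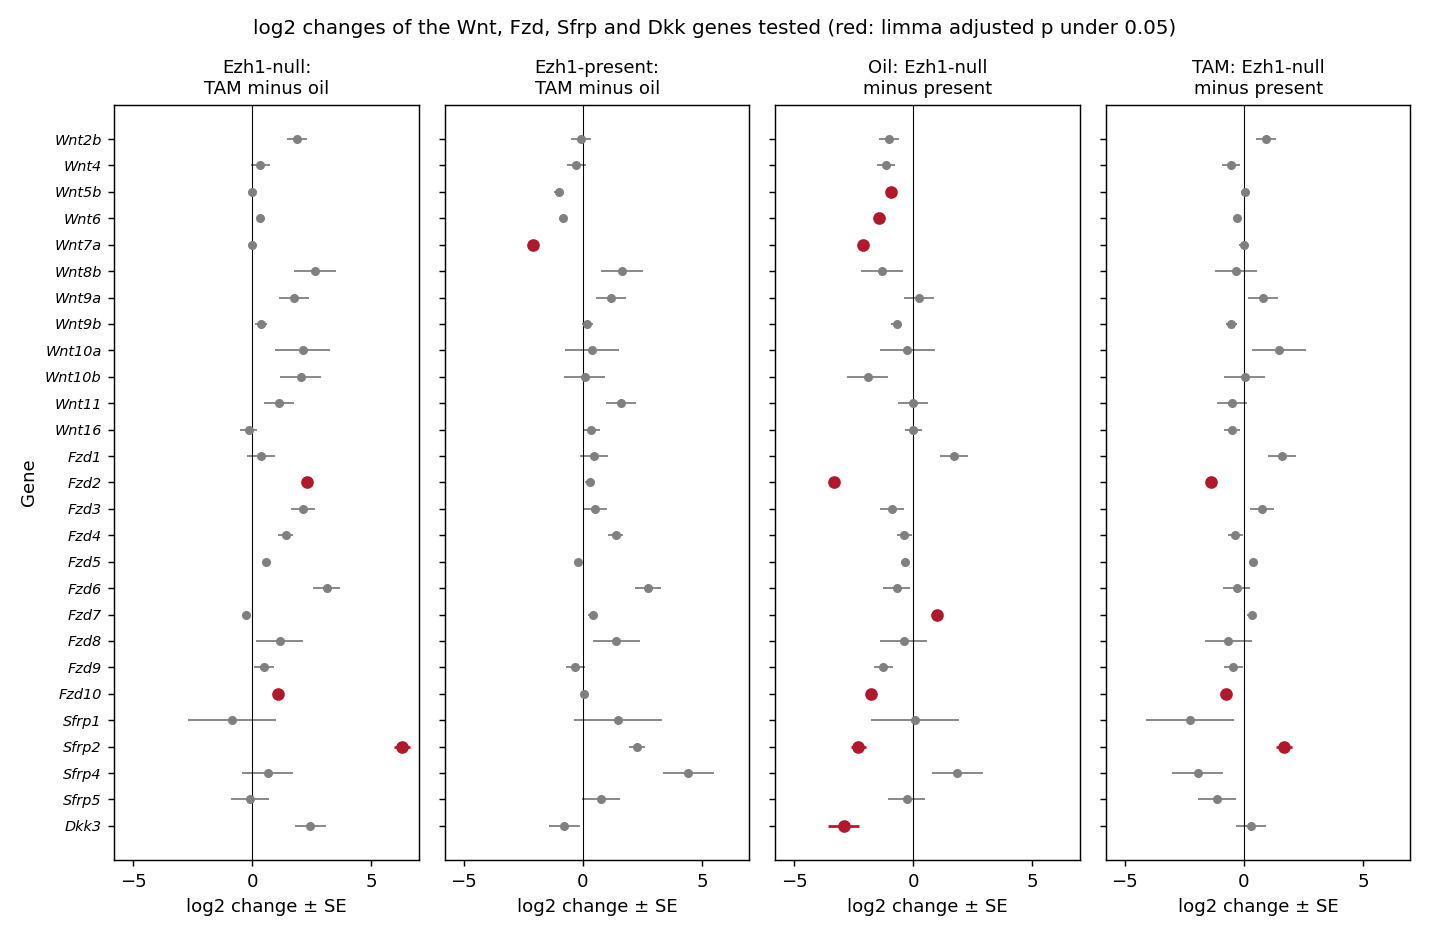
Log2 change ± standard error (x axis) of the 27 tested genes (y axis) in 4 comparisons (panels), with genes called by limma at an adjusted p under 0.05 in red. Called genes number 3, 1, 8 and 3 from left to right, and the largest called change is that of Sfrp2 in Ezh1-null cells, 6.28 ± 0.33.

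Markers of other marrow cells moved with the oil comparison. Of 13 stromal and osteoblast markers, 0 had a positive change there, against 45.6% of all genes, and the median was -1.68. Of the 13, 4 (Alpl, Pdgfrb, Runx2 and Sp7) were called lower in Ezh1-null oil libraries, against 12.4% of all genes. The library means of the 13 were -1.31 to -1.10 in Ezh1-null oil and 0.20 to 0.69 in Ezh1-present oil libraries, and -0.37 to -0.28 in Ezh1-null tamoxifen and 0.86 to 1.76 in Ezh1-present tamoxifen libraries. Lum was at the floor in both libraries of each group but Ezh1-present tamoxifen, Sp7 in both Ezh1-null oil libraries and Bglap, an osteoblast marker, in both Ezh1-present tamoxifen libraries. Of 8 endothelial markers 4 were lower in Ezh1-null oil libraries, where library means were -1.08 to -0.73, against 0.02 to 0.04 in Ezh1-present oil. In the same comparison 4 of 6 B cell markers, 6 of 14 T and NK cell markers, 1 of 7 erythroid markers and 6 of 8 myeloid progenitor markers were higher. The share of all genes called higher there was 12.5%. The T cell marker Cd4 was lower. After tamoxifen in Ezh1-null cells 11 of the 13 stromal changes were positive and Alpl was called higher, and 9 of 14 T and NK cell changes were positive (median 0.92) with Gzmb called higher. In the same cells 3 of 7 erythroid and 6 of 8 endothelial changes were positive, with medians of -0.45 and 0.78 and none called. Over all genes 48.3% of changes in that comparison were positive and 3.10% of genes were called higher. With Ezh1 present 10 of the 13 stromal changes were positive (median 0.97) and limma called 0. There 14 of 14 T and NK cell changes were positive (median 3.04), with Klrd1 and Nkg7 called higher. So were 7 of 7 erythroid changes (median 3.82) and 7 of 8 endothelial changes (median 1.55), with none called. Over all genes 51.8% of changes were positive there and 0.637% of genes were called higher. The 2 Ezh1-present tamoxifen libraries differed. Their means were -0.25 and 2.55 for erythroid, 0.68 and 1.74 for endothelial and 0.86 and 1.79 for T and NK cell markers. Between the tamoxifen groups 6 of 8 myeloid progenitor markers and 3 of 6 B cell markers were higher in Ezh1-null cells, against 6.77% of all genes. Runx2, Sp7, Cdh5, Stab2 and Cd4 were lower, against 5.44% of all genes. The part of these cells in the Wnt gene differences was not tested. In bulk libraries fewer cells of a type and less RNA per cell cannot be told apart.

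Among the ligands 3 were called, each lower in the Ezh1-null oil pair than in the Ezh1-present oil pair, and each had its highest values in the Ezh1-present oil pair. Wnt6 (gene 22420, mm10 chromosome 1, 74771892 to 74785319), a ligand that signals through beta-catenin in epithelia, had log2 values of -0.10 and -0.04 in Ezh1-null tamoxifen, -0.39 and -0.42 in Ezh1-null oil, 0.42 and 0.04 in Ezh1-present tamoxifen and 1.00 and 1.12 in Ezh1-present oil libraries. Both Ezh1-null oil libraries lay below every other library, and both Ezh1-present oil libraries above. The log2 change in oil was -1.46 ± 0.15 (limma adjusted p = 0.00441), and the call held in every alternative tried. The tamoxifen change with Ezh1 present was -0.82 ± 0.15 (adjusted p = 0.0799) and did not pass.

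Wnt5b (gene 22419, chromosome 6, 119432531 to 119544347), a ligand related to Wnt5a, had log2 values of 0.25 and -0.25 in Ezh1-null tamoxifen, -0.02 and 0.02 in Ezh1-null oil, -0.10 and -0.03 in Ezh1-present tamoxifen and 1.05 and 0.83 in Ezh1-present oil libraries. Only the Ezh1-present oil pair stood apart, and the other 6 libraries overlapped. The change in oil was -0.94 ± 0.19 (limma adjusted p = 0.0226). Its call ended without either library of either oil group, at adjusted p of 0.0864 (replicate 1) and 0.0883 (replicate 2) for Ezh1-null oil and 0.107 (replicate 1) and 0.064 (replicate 2) for Ezh1-present oil. The tamoxifen change with Ezh1 present was -1.01 ± 0.19 (adjusted p = 0.0855). Wnt5b overlaps Fbxl14 on the other strand and Wnt6 overlaps the antisense gene Gm29539. Whether the authors' counting used strand is not stated in the labels or files, so both values are uncertain on that account.

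Wnt7a (gene 22421, chromosome 6, 91363983 to 91411369), a ligand known from limb and brain development, was at the floor in both libraries of Ezh1-null tamoxifen, Ezh1-null oil and Ezh1-present tamoxifen, against about 4 and 6 reads in Ezh1-present oil libraries. Only the Ezh1-present oil pair held any reads. The limma log2 change was -2.11 ± 0.19 in Ezh1-null against Ezh1-present oil libraries (adjusted p = 0.00362) and -2.11 ± 0.19 after tamoxifen with Ezh1 present (adjusted p = 0.0276). Reads came mostly in even numbers, so the limit that a count of 0 allows is taken as 3 read pairs, or 6 reads, per library. Neither Ezh1-present oil library exceeded 6 reads, so no fold is given, and a difference in Wnt7a was not resolved at this depth whatever the adjusted p. The tamoxifen call also ended when 1 library was left out, at adjusted p = 0.0768 for either Ezh1-null tamoxifen library, 0.0681 for either Ezh1-null oil library and 0.104 for Ezh1-present tamoxifen replicate 2.

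The other 9 ligands tested were never called. Wnt8b had log2 values of 0.04 and 1.31 in Ezh1-null tamoxifen, -3.04 and -0.85 in Ezh1-null oil, 0.73 and 1.29 in Ezh1-present tamoxifen and -0.04 and -1.24 in Ezh1-present oil libraries. Its tamoxifen change was 2.62 ± 0.89 without Ezh1 (limma adjusted p = 0.213) and 1.65 ± 0.89 with Ezh1 (0.361), with groups that did not overlap in either genotype. No floor was seen for Wnt8b, so its reads are not known, and its lowest values and both changes may rest on few reads. Wnt10b, known as an activator of bone formation, had log2 values of 0.04 and 0.28 in Ezh1-null tamoxifen against -0.50 and -3.24 in Ezh1-null oil libraries, and its change was 2.02 ± 0.87 (adjusted p = 0.32). The spread between the oil libraries of that pair was larger than the change itself. Wnt10a had about 4 and 10 reads in Ezh1-null tamoxifen, 2 and 0 in Ezh1-null oil, 0 and 6 in Ezh1-present tamoxifen and 0 and 4 in Ezh1-present oil libraries. Wnt9a had about 4 and 6, 2 and 0, 6 and 2, and 0 and 2 reads in the same groups. Wnt11, a ligand of cell movement, had about 2 and 2 reads in Ezh1-null tamoxifen and 2 and 6 in Ezh1-present tamoxifen libraries, against 0 in all 4 oil libraries. These counts lie within what a count of 0 allows or close to it, so no difference was detectable at this depth.

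**Figure D3:**
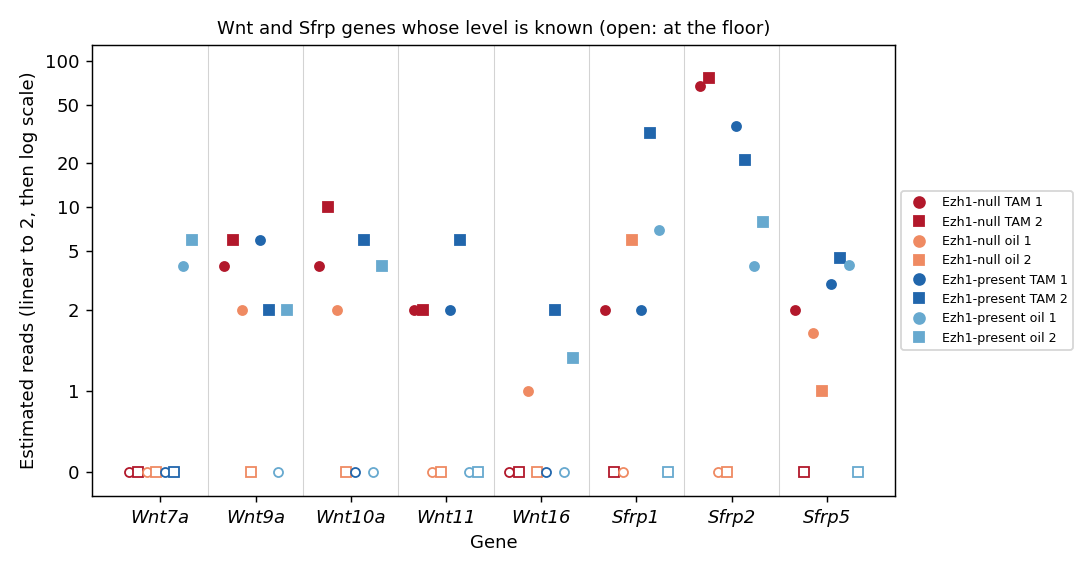
Estimated reads (y axis, linear to 2 and logarithmic above) in each library for the 8 genes whose floor gives their level, with libraries at the floor as open symbols at 0. Sfrp2 reaches 67.5 and 76.9 reads in Ezh1-null tamoxifen libraries, and the 5 ligands do not exceed 10 reads in any library.

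Of the receptors 10 of 10 Frizzled genes were tested, of which Fzd2, Fzd7 and Fzd10 were called. Fzd2 (gene 57265, chromosome 11, 102604431 to 102608058), a receptor that responds to Wnt3a and Wnt5a, had log2 values of -0.36 and -0.71 in Ezh1-null tamoxifen, -2.77 and -2.88 in Ezh1-null oil, 0.98 and 0.68 in Ezh1-present tamoxifen and 0.69 and 0.36 in Ezh1-present oil libraries. Ezh1-null oil was lowest, Ezh1-null tamoxifen lay between it and the Ezh1-present groups, and the Ezh1-present groups overlapped. In Ezh1-null cells it was 4.89-fold higher after tamoxifen (log2 change 2.29 ± 0.19, limma adjusted p = 0.00881). In oil the ratio of Ezh1-null to Ezh1-present cells was 0.0978 (-3.35 ± 0.19, adjusted p = 0.00215), and after tamoxifen it was 0.388 (-1.37 ± 0.19, adjusted p = 0.0201). With Ezh1 present the tamoxifen change was 0.30 ± 0.19 (adjusted p = 0.435). No floor was seen for Fzd2, so its reads are not known. Its Ezh1-null oil values had an SD of 0.0822, the same as those of Dkk3 and Sfrp4. Equal read counts in both libraries would give about this SD. The folds against Ezh1-null oil may thus rest on few reads, and their standard errors may be too small. The oil call held in every alternative. The tamoxifen call in Ezh1-null cells held without any 1 library and ended with quantile normalisation (1.40, adjusted p = 0.0601) and with only these 2 groups fitted (0.0587). The call between the tamoxifen groups ended without either library of either group, at adjusted p of 0.061 and 0.0779 without Ezh1-null replicates 1 and 2 and 0.0741 and 0.0551 without Ezh1-present replicates 1 and 2.

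Fzd10 (gene 93897, chromosome 5, 128601106 to 128604093), a receptor of embryonic tissues, had the same order of groups. Its log2 values were -0.28 and -0.46 in Ezh1-null tamoxifen, -1.61 and -1.33 in Ezh1-null oil, 0.46 and 0.28 in Ezh1-present tamoxifen and 0.31 and 0.30 in Ezh1-present oil libraries. Both Ezh1-null groups lay below both Ezh1-present groups, and the Ezh1-null groups did not overlap. The change after tamoxifen in Ezh1-null cells was 1.10 ± 0.14 (limma adjusted p = 0.0255), that in oil -1.77 ± 0.14 (0.00295) and that between the tamoxifen groups -0.74 ± 0.14 (0.0347). With Ezh1 present the tamoxifen change was 0.06 ± 0.14 (0.831), within the spread between replicates. The oil call held in every alternative. The tamoxifen call in Ezh1-null cells ended with quantile normalisation, which gave 0.45 (adjusted p = 0.201). It also ended at 0.118 and 0.0914 without Ezh1-null tamoxifen replicates 1 and 2, at 0.0745 (replicate 1) and 0.0505 (replicate 2) without an Ezh1-null oil library and at 0.0617 without either Ezh1-present oil library. The call between the tamoxifen groups ended at 0.101 and 0.127 without Ezh1-null tamoxifen replicates 1 and 2, at 0.12 and 0.079 without Ezh1-present tamoxifen replicates 1 and 2 and at 0.069 without either Ezh1-present oil library.

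Fzd7 (gene 14369, chromosome 1, 59482147 to 59486955), a receptor linked to stem cell maintenance in several tissues, was the called gene of these families that was higher in Ezh1-null oil. Its log2 values were 0.03 and 0.04 in Ezh1-null tamoxifen, 0.36 and 0.21 in Ezh1-null oil, -0.57 and -0.03 in Ezh1-present tamoxifen and -0.75 and -0.67 in Ezh1-present oil libraries. All 4 Ezh1-null libraries lay above all 4 Ezh1-present ones. The change in oil was 0.99 ± 0.19, or 1.99-fold (limma adjusted p = 0.0206), and after tamoxifen 0.33 ± 0.19 (adjusted p = 0.291). The oil call ended without either library of either oil group, at adjusted p of 0.0852 (replicate 1) and 0.072 (replicate 2) for Ezh1-null oil and 0.0961 (replicate 1) and 0.0762 (replicate 2) for Ezh1-present oil.

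**Figure D4:**
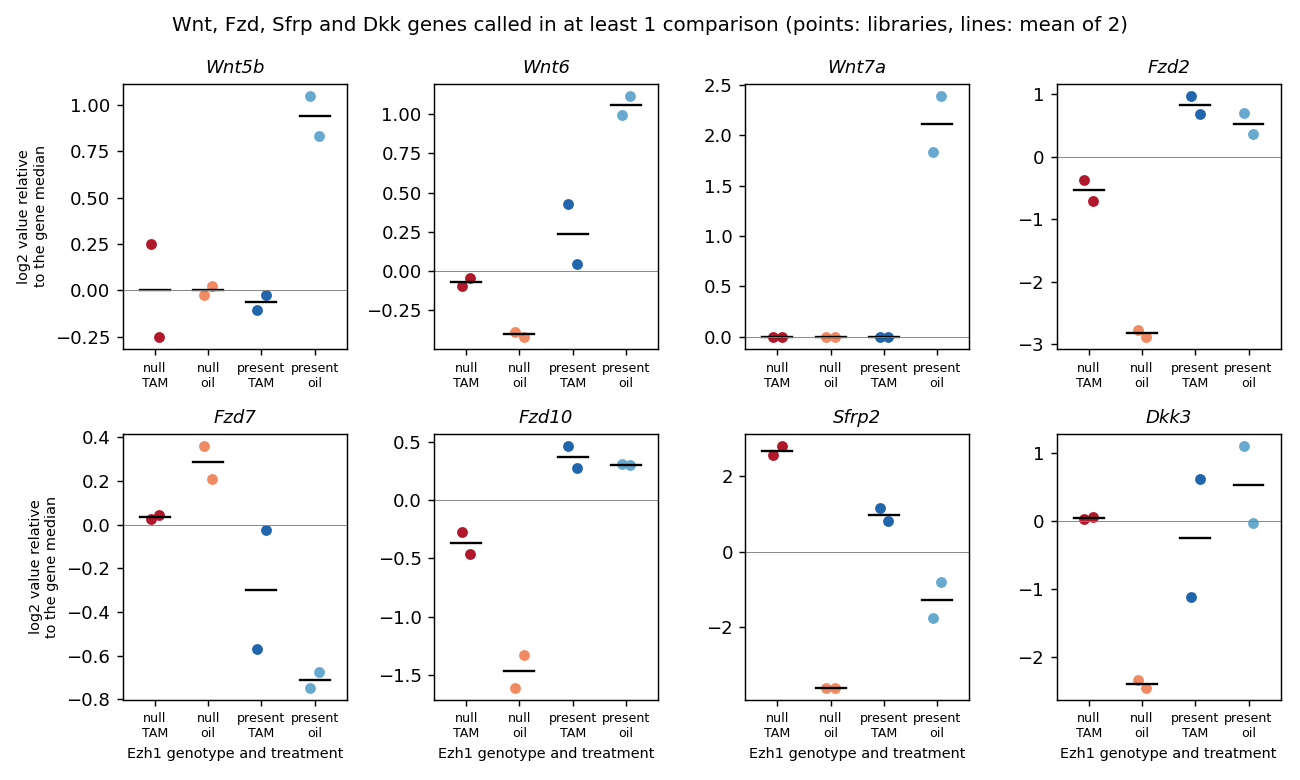
Log2 value relative to the gene's median (y axis, scaled per panel) in each library (points) and the mean of 2 libraries (lines) for the 8 called genes, by group (x axis). Fzd2, Fzd10, Sfrp2 and Dkk3 have their lowest points in Ezh1-null oil, and Wnt5b, Wnt6 and Wnt7a their highest in Ezh1-present oil.

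The other 7 receptors were never called. Fzd6, which restrains beta-catenin signalling in some settings and orients cells in epithelia, had log2 values of 1.39 and 1.08 in Ezh1-null tamoxifen, -2.69 and -1.08 in Ezh1-null oil, 1.20 and 1.89 in Ezh1-present tamoxifen and -1.18 and -1.19 in Ezh1-present oil libraries. All 4 tamoxifen libraries lay above all 4 oil libraries. The tamoxifen changes were 3.12 ± 0.55 without Ezh1 (limma adjusted p = 0.0552) and 2.73 ± 0.55 with Ezh1 (0.0937), and neither passed. Fzd4, a receptor of vessel growth, had tamoxifen changes of 1.40 ± 0.31 without Ezh1 (adjusted p = 0.0911) and 1.38 ± 0.31 with Ezh1 (0.111). Fzd3 had log2 values of 1.19 and 0.70 in Ezh1-null tamoxifen against -1.90 and -0.47 in Ezh1-null oil libraries, with a change of 2.13 ± 0.50 (adjusted p = 0.106). Fzd1 had values of 0.92 and 0.16 in Ezh1-null oil against -0.60 and -1.72 in Ezh1-present oil libraries, with a change of 1.70 ± 0.60 (adjusted p = 0.0974). Each of these pairs stood apart without overlap and missed the threshold.

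Sfrp2 (gene 20319, chromosome 3, 83766321 to 83774314), a secreted protein that binds Wnts and is made by many fibroblasts, had the largest called change. It had an estimated 67.5 and 76.9 reads in Ezh1-null tamoxifen, 0 and 0 in Ezh1-null oil, 36.0 and 21.0 in Ezh1-present tamoxifen and 4.00 and 7.89 in Ezh1-present oil libraries. Every tamoxifen library lay above every oil library, and Ezh1-null tamoxifen was highest. In Ezh1-null cells the gene was at least 10.9-fold higher after tamoxifen, set against 6 reads per library for the oil pair, and the limma log2 change was 6.28 ± 0.33 (adjusted p = 0.00415). That call held in every alternative, with adjusted p from 0.00441 to 0.0343, though the oil libraries at the floor cannot vary. With Ezh1 present the change was 2.27 ± 0.33, or 4.81-fold (adjusted p = 0.0586), and did not pass. It passed without Ezh1-present oil replicate 2 (2.74, adjusted p = 0.0332).

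Between genotypes Sfrp2 differed by 1.70 ± 0.33 in tamoxifen libraries, or 3.25-fold higher in Ezh1-null cells (limma adjusted p = 0.0362). That call ended at adjusted p of 0.124 and 0.134 without Ezh1-null tamoxifen replicates 1 and 2, 0.1 and 0.128 without Ezh1-present tamoxifen replicates 1 and 2, and 0.07 without either Ezh1-null oil library. In oil the change was -2.31 ± 0.33 (adjusted p = 0.00971), and it was 0.052 without Ezh1-null oil replicate 2. The Ezh1-present oil libraries averaged less than the limit that a count of 0 allows, so no fold is given for oil and the difference was not resolved at this depth. Sfrp2 overlaps the antisense gene Gm26771, so reads of the pair may not be told apart. Library means of the 13 stromal markers were -1.31 to -1.10 in Ezh1-null oil and -0.37 to -0.28 in Ezh1-null tamoxifen. They were 0.20 to 0.69 in Ezh1-present oil and 0.86 to 1.76 in Ezh1-present tamoxifen. Both these means and Sfrp2 were lowest in Ezh1-null oil and higher after tamoxifen in each genotype. The means were highest in Ezh1-present tamoxifen, where Sfrp2 was not. The group means of Bglap, Runx2 and Pdgfrb were not highest there either. The part of stromal cells in the Sfrp2 change was not tested.

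The other Sfrp genes did not pass in any comparison. Sfrp4, a Wnt-binding protein of bone, had log2 values of 0.58 and 0.20 in Ezh1-null tamoxifen, -0.20 and -0.32 in Ezh1-null oil, 0.66 and 4.00 in Ezh1-present tamoxifen and -2.51 and -1.70 in Ezh1-present oil libraries. Its change with Ezh1 present was 4.43 ± 1.07 (limma adjusted p = 0.122), and without Ezh1 0.65 ± 1.07 (0.815). No floor was seen for Sfrp4, so its reads are not known. Its SD in Ezh1-present oil libraries, 0.570, equalled that of Wnt9a, which had about 0 and 2 reads there. The change with Ezh1 present may thus rest on few reads in oil. Sfrp1 had an estimated 2 and 0 reads in Ezh1-null tamoxifen, 0 and 6 in Ezh1-null oil, 2 and 32.5 in Ezh1-present tamoxifen and 7 and 0 in Ezh1-present oil libraries. The second Ezh1-present tamoxifen library was the highest for both Sfrp1 and Sfrp4. It also held the higher stromal, endothelial, erythroid and T and NK cell marker means of its group. Sfrp5 did not exceed 4.5 reads in any library.

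Dkk3 (gene 50781, chromosome 7, 112116019 to 112159057) was the member of the Dkk family that could be tested, and it is the divergent one, which does not act on Lrp6 as Dkk1 does. Its log2 values were 0.03 and 0.06 in Ezh1-null tamoxifen, -2.33 and -2.45 in Ezh1-null oil, -1.12 and 0.62 in Ezh1-present tamoxifen and 1.10 and -0.03 in Ezh1-present oil libraries. The Ezh1-null oil libraries lay below all others, and the other 3 groups overlapped. The change in oil was -2.93 ± 0.64 (limma adjusted p = 0.0298), and that after tamoxifen in Ezh1-null cells was 2.44 ± 0.64 (adjusted p = 0.133). No floor was seen for Dkk3, so its reads are not known. Its Ezh1-null oil values had an SD of 0.0822, as for Fzd2, which equal read counts in both libraries would about give. Both changes may thus rest on few reads in Ezh1-null oil. The oil call ended with quantile normalisation (-2.29, adjusted p = 0.0654), at 0.0978 (replicate 1) and 0.118 (replicate 2) without an Ezh1-null oil library, at 0.126 (replicate 1) and 0.0581 (replicate 2) without an Ezh1-present oil library and at 0.061 without either Ezh1-null tamoxifen library.

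Whether tamoxifen acted differently in the 2 genotypes was tested as an interaction, the tamoxifen change without Ezh1 minus that with Ezh1. None of the 27 genes passed, against 0.476% of all genes tested, while 9 of the 27 and 2697 of all genes had an unadjusted limma p under 0.05. The difference was 4.01 ± 0.47 for Sfrp2 (adjusted p = 0.0529), 1.99 ± 0.27 for Fzd2 (0.0695), 2.11 ± 0.27 for Wnt7a (0.0642) and 1.03 ± 0.20 for Fzd10 (0.126). Without Ezh1-present oil replicate 1 or 2 the adjusted p was 0.0476 and 0.0343 for Sfrp2 and 0.0438 and 0.0334 for Wnt7a. Sfrp2 was at 0 reads in Ezh1-null oil, where limma takes the floor as its level. Against 6 reads per library its change without Ezh1 was at least 10.9-fold. With Ezh1 the limma fold was 4.81, set against oil libraries of an estimated 4.00 and 7.89 reads. These folds are of unlike kinds and cannot be compared directly. Wnt7a was at the floor in all but the Ezh1-present oil libraries, which did not exceed 6 reads. The size of the Sfrp2 difference was therefore not resolved at this depth, and nor was any Wnt7a difference, whatever the adjusted p. The largest negative difference, -3.79 ± 1.52 for Sfrp4, had an adjusted p of 0.339.

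Of 67 other Wnt pathway genes listed, 65 were in the table and 61 were tested. After tamoxifen in Ezh1-null cells 6 of the 61 rose and 0 fell, against 3.40% of all genes called and 3.10% higher, with a median change of 0.14, against 0.00 over all genes. They were the co-receptor Ryk, the R-spondin receptor Lgr4, the antagonists Notum, which removes the lipid from Wnts, and Nkd1, the repressor Tcf7l1 and the target gene Ccnd1, which encodes cyclin D1. Ccnd1 had log2 values of 1.51 and 1.80 in Ezh1-null tamoxifen, -0.36 and -0.39 in Ezh1-null oil, 0.21 and 0.98 in Ezh1-present tamoxifen and -0.21 and -0.37 in Ezh1-present oil libraries. Its change was 2.02 ± 0.27 (limma adjusted p = 0.0284), and that of Tcf7l1 was 2.33 ± 0.25 (0.0165). Lgr4 rose by 1.20 ± 0.11 (0.00995), Ryk by 1.70 ± 0.27 (0.0423) and Nkd1 by 1.74 ± 0.28 (0.0438). Each of these calls, that of Notum included, ended without at least 1 library, and none of the 6 held without Ezh1-null tamoxifen replicate 1, where adjusted p ran from 0.0548 for Lgr4 to 0.175 for Nkd1. With Ezh1 present 0 of the 61 were called by limma after tamoxifen.

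Notum was high in Ezh1-null tamoxifen libraries, with log2 values of 1.81 and 1.52, against -0.03 and -0.35 in Ezh1-null oil, -0.38 and -0.65 in Ezh1-present tamoxifen and 0.15 and 0.03 in Ezh1-present oil. It rose by 1.85 ± 0.18 after tamoxifen without Ezh1 (limma adjusted p = 0.0124) and its change with Ezh1 was -0.61 ± 0.18 (0.159), which did not pass. Between the tamoxifen groups it was higher in Ezh1-null cells by 2.18 ± 0.18 (0.00766), a call that held without any 1 library. In that comparison 4 of the 61 were called, all higher, against 12.2% of all genes called and 6.77% higher. Ryk (1.48 ± 0.27, 0.0321), Pygo2 (0.44 ± 0.09, 0.0406) and Tpbg (3.27 ± 0.58, 0.0309) were also higher there, and each of these 3 lost its call without at least 1 library, with adjusted p up to 0.128, 0.139 and 0.129.

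In oil 19 of the 61 pathway genes differed between Ezh1-null and Ezh1-present cells, 6 higher and 13 lower, with a median of -0.05, against -0.04 over all genes. The share of all genes called in this comparison was 24.9%, with 12.5% higher and 12.4% lower. The lower ones were the receptors Ptk7 and Lgr4, the ligase Znrf3, the beta-catenin regulators Apc2, Csnk1e, Ctnnbip1 and Nkd1, and the nuclear factors Tcf7l1, Tcf7l2, Tle1, Tle2, Bcl9 and Bcl9l. Their changes ran from -2.39 ± 0.28 for Nkd1 (limma adjusted p = 0.00611) to -0.36 ± 0.09 for Bcl9 (0.0452). The higher ones were Lgr5, Ryk, Wls, which carries Wnts to the cell surface, and the nuclear factors Lef1, Pygo2 and Tle4. Lgr5, a target and R-spondin receptor, had log2 values of 1.29 and 0.43 in Ezh1-null oil against -1.51 and -1.54 in Ezh1-present oil libraries (2.39 ± 0.32, 0.008). Lef1, which binds DNA with beta-catenin, had 1.20 and 1.52 in Ezh1-null oil against -1.05 and -0.49 in Ezh1-present oil libraries (2.13 ± 0.40, 0.0198). Lef1 is also expressed in B and T cell precursors. In Ezh1-null oil libraries 4 of 6 B cell markers and 6 of 14 T and NK cell markers were called higher, and Cd4 was called lower. The part of such cells in the Lef1 difference was not tested. Apc2, Nkd1, Znrf3 and Lgr5 held without any 1 library, and the other 15 lost their call without at least 1 of the 4 oil libraries. The highest adjusted p on leaving out 1 library was 0.167, for Tle2 without Ezh1-present oil replicate 1.

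Ctnnb1, Lrp6, Axin2 and Tcf7 were not called in any comparison. Tcf7 passed under some alternatives: after tamoxifen in both genotypes with quantile normalisation or without Ezh1-present tamoxifen replicate 1, without Ezh1 also on leaving out replicate 2 of that group, and between genotypes in oil without either of these libraries or with only the oil groups fitted. Ctnnb1, which encodes beta-catenin, had a change of -0.02 ± 0.08 after tamoxifen without Ezh1 (limma adjusted p = 0.964), and its log2 values over the 8 libraries lay between -0.06 and 0.16. Lrp6, the co-receptor, had a change of 0.14 ± 0.08 (0.409). Axin2, a widely used target of beta-catenin, had a change of -0.22 ± 0.42 (0.849), with 0.71 and -0.58 in the Ezh1-null oil libraries. Tcf7 had log2 values of 1.04 and 1.44 in Ezh1-null tamoxifen, -0.54 and -0.50 in Ezh1-null oil, 0.50 and 1.58 in Ezh1-present tamoxifen and -1.43 and -1.20 in Ezh1-present oil libraries. Its tamoxifen changes of 1.76 ± 0.37 without Ezh1 (0.0811) and 2.35 ± 0.37 with Ezh1 (0.0657) missed the threshold, with tamoxifen libraries above oil libraries in both genotypes. Tcf7 is also expressed in T cells, and T and NK cell markers had positive changes in 9 of 14 without Ezh1 and 14 of 14 with Ezh1. Their part in the Tcf7 change was not tested. Of 13 tested targets of beta-catenin signalling, 3 rose after tamoxifen in Ezh1-null cells (Ccnd1, Nkd1 and Notum) and 8 had a positive change, with a median of 0.06. Over all genes 3.10% were called higher in that comparison and 48.3% of changes were positive.

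**Figure D5:**
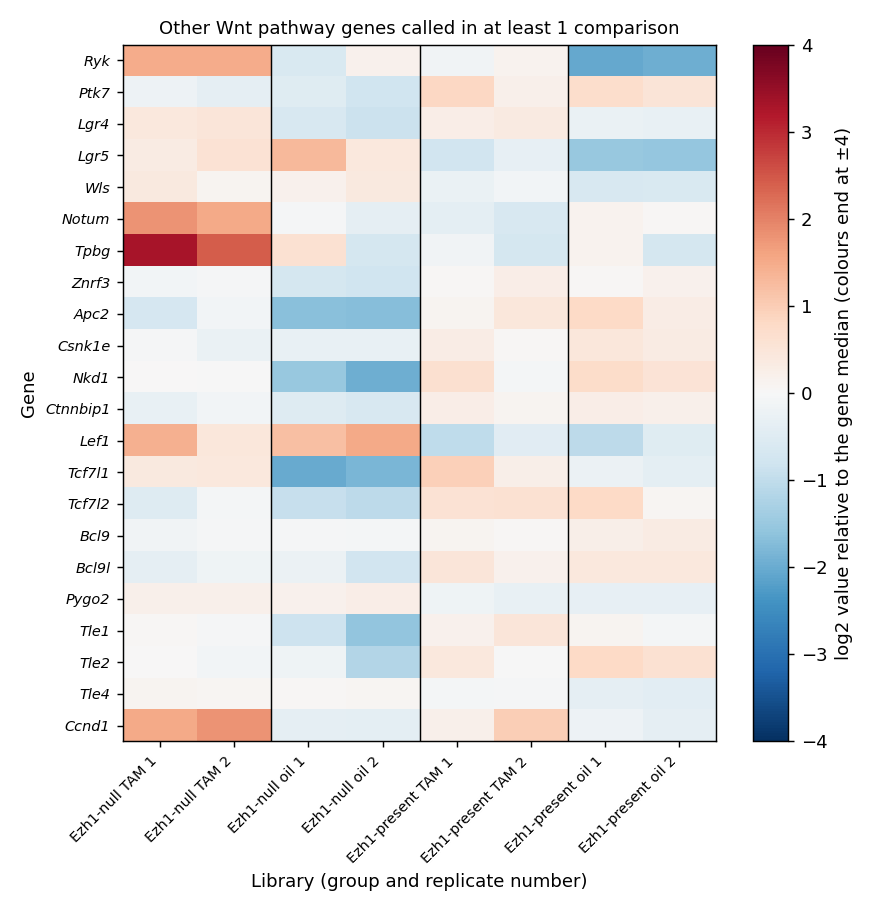
Log2 value relative to the gene's median (colour, ending at ±4) of the 22 other Wnt pathway genes called in at least 1 comparison (rows) in the 8 libraries (columns, divided by group). Notum, Tpbg and Ccnd1 stand highest in the Ezh1-null tamoxifen columns, and Nkd1, Apc2 and Tcf7l1 lowest in the Ezh1-null oil columns.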

How the data were processed

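RNA sequencing of 8 libraries was read from the authors' deposited gene tables. Per the file headers the values were normalised and filtered to the 20th to 100th percentile. In the deposited table they proved to be log2 of a normalised read count with a floor of 1, centred per gene. The largest row median was within 9.55e-07 of 0, and the fold changes the authors deposited equalled the differences of group means to within 5.4e-07. The build is mm10 per the submitters' processing notes. The sources used here do not give the aligner, counter or scaling, and the labels give no batch.

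A floor was seen where at least 2 libraries tied at the row minimum (tolerance 2e-06). There the value of 1 read was found per library, at which 67.5% to 74.2% of low values were whole within 0.01, and of these 85.2% to 93.3% were even. Intervals and limits cover counting error only. No total counts were recovered, so no count test was run.

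The 18051 of 31574 rows with 2 or more libraries over the floor were fitted with limma 3.58.1 in R 4.3.3, with 1 coefficient per group, no covariate and 4 residual degrees of freedom, and adjusted over all of them by the Benjamini-Hochberg method. The fit was tested on simulated normal values for rows with no floor seen, with changes made in the Ezh1-null tamoxifen group only. That test does not cover rows with libraries tied at the floor, such as Wnt7a and Sfrp2. An exact permutation of 2 against 2 libraries cannot give a two-sided p under 0.333 and was not run. Comparisons were tamoxifen minus oil in each genotype, Ezh1-null minus Ezh1-present in each treatment, and the interaction. Tables were handled with Python 3.11.15, and overlapping genes were looked up in GENCODE vM21.

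The gene families, lists and tests were chosen with earlier results of these data known. Values in all libraries are given for called genes of the 4 families, and values for up to 3 uncalled genes per role with the largest changes. Other values given (Wnt9a, Wnt11, Fzd4 and the genes detected in 1 library) were chosen after their values were seen. Of the pathway lists, called genes are named, with Ctnnb1, Lrp6, Axin2, Tcf7 and Lef1. Tiki1, Amer1 and the erythroid marker Hbb-bs were not matched by symbol, and Ror1, Sost, Sostdc1 and Sp5 were below the filter. Alternatives were quantile normalisation, filters of at least 1 and at least 4 libraries above the floor, a pseudocount of 1, the replicate number as a block, a fit of only the groups compared, and leaving out each library.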

Additional observations from a re-analysis of the deposited data

Results flagged for a closer look

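Notum, the Wnt-inactivating esterase, was marked because its tamoxifen change differed between genotypes by the interaction test. The log2 change was 1.85 ± 0.18 without Ezh1 and -0.61 ± 0.18 with Ezh1, a difference of 2.46 ± 0.25 (limma adjusted p = 0.041). In Ezh1-null cells both tamoxifen libraries lay above both oil libraries, and in Ezh1-present cells both lay below. The adjusted p was 0.0874 with quantile normalisation, 0.0615 with at least 4 libraries above the floor, 0.058 with a pseudocount of 1, 0.0524 with the replicate block, and 0.0662 to 0.146 without 1 library in turn.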

How the results depend on the processing

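Over 14 alternatives, 8 of which leave out 1 library each, no gene result recomputed reversed its direction. The genes recomputed singly were those called, plus Sfrp2 after tamoxifen with Ezh1 and the interactions of Sfrp2, Fzd2 and Wnt7a. Of the recomputed values 502 kept their side of the threshold, 228 fell short of it and 5 newly passed it. Among genes of the 4 families, the main counts called were 3 for tamoxifen in Ezh1-null cells, 1 for tamoxifen in Ezh1-present cells, 8 for Ezh1 genotype in oil, 3 for genotype after tamoxifen and 0 for the interaction. Leaving out 1 library gave 2 to 4, 0 to 4, 4 to 10, 0 to 2 and 0 to 2 in that order. Among the other pathway genes, with main counts of 6, 0, 19, 4 and 1, it gave 0 to 6, 0 to 2, 4 to 17, 1 to 3 and 0 to 0. Quantile normalisation gave 1 (Sfrp2) and 0 family genes for tamoxifen in Ezh1-null and Ezh1-present cells, and among pathway genes 1 (Tcf7) for tamoxifen in Ezh1-present cells and 0 for the interaction. It shifted the median change of all genes by at most 0.09 and lowered the share of higher calls over all genes from 91.2% to 74.8% in Ezh1-null cells and from 67.4% to 54.1% for the interaction. With at least 4 libraries above the floor 0 family genes were called for tamoxifen in Ezh1-present cells and 0 pathway genes for the interaction, and that filter leaves Wnt7a without a value. A pseudocount of 1 gave 0 pathway genes for the interaction. Fitting only the groups compared gave 0 family genes for tamoxifen in Ezh1-present cells and for genotype after tamoxifen, and 1, 11 and 0 pathway genes for tamoxifen in Ezh1-null cells, genotype in oil and genotype after tamoxifen. Except as the fits' construction shows (fewer libraries or rows), the cause was not tested.

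The replicate numbers did not pair the libraries: correlations of the differences between replicates ran from -0.06 to 0.08 over pairs of groups. With the replicate block the counts of family genes were 2, 0, 7, 1 and 0, and of pathway genes 5, 0, 17, 3 and 0, in the order of comparisons above. Since values are centred and most low values are a few reads, levels between genes and differences under 6 reads per library cannot be read.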
